A study of Homo sapiens with 9 samples.

Results

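The lecticans (NCAN, BCAN, VCAN and ACAN) and the hyaluronan link proteins (HAPLN1 to HAPLN4) were examined in RNA-seq libraries of 293T cells that overexpressed single transcription factors (TFs). The 8 genes were chosen from the symbols of these 2 families, out of 57163 genes in the count table, and all 8 were found by their Ensembl gene IDs. The families were chosen with the counts of the library overexpressing NRF1 already known, so the values of that library against the control are given as a description, with no test. Of the 8 genes, 7 had counts in some library and 6 reached 1 CPM (CPM being the count scaled to a common library size, here with TMM factors) in at least 1 library.

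The study asked whether TFs found more often at the promoters of conserved lncRNAs alter the expression of those lncRNAs. 293T is a human embryonic kidney line that carries the SV40 large T antigen. In 8 TF libraries the cells had been transfected with an expression plasmid for NRF1, E2F4, EGR1 or ZBTB7A, which the study calls conserved lncRNA-binding TFs (CLB_TFs), or for HOXA11, RORA, TFCP2 or NKX2-8, its control TFs, and the single control library, labelled blank, came from cells given the plasmid without a TF. There was 1 library for each of the 9 conditions, so no TF library has a replicate, intervals on single values cover counting error only, and transient transfection leaves a mixture of cells that did and did not take up the plasmid. In such bulk samples, more expressing cells and more RNA per cell cannot be told apart.

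The libraries held 14177970 to 18915400 counts. The NRF1 and EGR1 libraries had counts in 26166 and 26296 genes. The remaining 6 TF libraries had counts in 23534 to 24593 genes, and the control library in 23344. Every inserted TF was highest in its own library, 28.4-fold to 1182-fold above the control library. The control library itself stood apart in 1 of these genes, with 9812 TFCP2 counts, 12.6-fold above the mean of the 7 libraries that carried another TF, in which TFCP2 had 653 to 703 counts. For the members in the NRF1 library, and for calls in the other TF libraries, values against other TF libraries are therefore given too, while neighbours, ranks, pathway genes and markers are given against the control library only. Of 7 kidney epithelial markers, 6 were at 1 CPM or more in every library, and PAX8 had 0 counts in 6 of the libraries and at most 2 in the others.

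Lecticans are large chondroitin sulfate proteoglycans that bind hyaluronan, a long sugar polymer, through a globular domain at one end of the core protein. Link proteins carry related hyaluronan-binding modules and clamp the complex of lectican and hyaluronan together. In the brain these complexes, crosslinked by tenascin-R, form the perineuronal nets around certain neurons, and in cartilage aggrecan with HAPLN1 gives the tissue its resistance to compression. NCAN (neurocan) and BCAN (brevican) are the lecticans typical of the nervous system, ACAN (aggrecan) is the main one of cartilage and also a net component, and VCAN (versican) is widespread in connective tissue. HAPLN1 is the cartilage link protein, HAPLN2 and HAPLN4 are the brain link proteins, and HAPLN3 is expressed more widely.

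In the human genome each lectican gene has a link protein gene beside it, with no protein-coding gene between them in GENCODE annotation on GRCh37. NCAN (chr19:19322782-19363042, plus strand) ends 3407 bases before HAPLN4 (chr19:19366450-19373605, minus strand), and ACAN (chr15:89346673-89418585, plus strand) ends 1933 bases before HAPLN3 (chr15:89420519-89438857, minus strand). HAPLN2 (chr1:156589086-156595517, plus strand) lies 15664 bases before BCAN (chr1:156611182-156629324, plus strand). VCAN (chr5:82767284-82878122, plus strand) and HAPLN1 (chr5:82933624-83017432, minus strand) are 55501 bases apart. This layout allows each lectican to be read beside its own neighbour.

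The promoter table from RefSeq (GRCh38.p14, a different build from that of the counts) held 7 of the 8 genes, and NCAN was the one missing. The 250 bases before the RefSeq start, on the plus strand in each case, are shown for BCAN (chr1:156641867-156642116) and ACAN (chr15:88803186-88803435), both higher in the NRF1 library, and for HAPLN2 (chr1:156619165-156619414), which lies next to BCAN and kept its level. The capitals in BCAN mark a match to the EGR1 motif GCGGGGGCG.
BCAN: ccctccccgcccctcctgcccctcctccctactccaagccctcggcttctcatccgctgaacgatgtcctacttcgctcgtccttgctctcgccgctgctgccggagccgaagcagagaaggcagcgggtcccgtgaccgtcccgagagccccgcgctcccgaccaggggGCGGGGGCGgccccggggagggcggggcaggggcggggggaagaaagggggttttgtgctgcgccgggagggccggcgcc
ACAN: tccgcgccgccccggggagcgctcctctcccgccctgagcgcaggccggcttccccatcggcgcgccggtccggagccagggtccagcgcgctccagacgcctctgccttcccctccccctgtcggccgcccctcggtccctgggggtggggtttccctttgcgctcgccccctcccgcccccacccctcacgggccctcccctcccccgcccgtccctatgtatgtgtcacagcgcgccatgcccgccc
HAPLN2: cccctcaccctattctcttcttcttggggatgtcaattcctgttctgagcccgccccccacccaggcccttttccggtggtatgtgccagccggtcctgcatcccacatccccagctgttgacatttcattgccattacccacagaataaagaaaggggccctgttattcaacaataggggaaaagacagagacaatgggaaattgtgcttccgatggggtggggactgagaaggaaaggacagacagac

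The BCAN and ACAN promoters were rich in G and C. Over 300 bases, including the first 50 of the transcript, GC content was 72.7% for BCAN and 77.0% for ACAN, against a median of 58.7% over the 35116 promoters of the table. They held 31 and 33 CG pairs, against a median of 14. The HAPLN2 promoter had 53.0% GC and 5 CG pairs, HAPLN1 had 6 CG pairs, and VCAN, HAPLN3 and HAPLN4 lay between 60.3% and 65.0%. The NRF1 motif GCGCANGCGC was searched on both strands and was present in 5.78% of all promoters and in none of the 7. The NCAN promoter could not be searched for this or the other motifs. For EGR1, GCGGGGGCG occurred in 5.07% of all promoters and, among the 7, in BCAN once, from 80 to 72 bases before the start. The second EGR1 form, GCGTGGGCG, occurred in 0.795% of promoters and in none of the 7. The E2F motifs TTTGGCGC, TTTCCCGC and TTTGGCGG occurred in 0.652%, 1.63% and 0.652% of promoters and in none of the 7. These matches are descriptions of the letters in the window, not of binding.

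NCAN, BCAN and ACAN were the 3 members whose level in the NRF1 library was at least 2-fold above the control library. A member was tested where at least 1 library of the pair reached 1 CPM, and called where the log2 fold change (TMM-scaled CPM, prior count 2) was at least 1 in size. By this rule 6 members were tested in the NRF1 library, 3 rose and 0 fell, beside 8.24% of all genes tested that rose and 0.235% that fell. Because the NRF1 values chose the family, these counts are read only as a description. The median log2 fold change of the 6 members was 1.64, and that of all genes tested was -0.02.

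NCAN, the neurocan core protein, had 452 counts in the NRF1 library, 10 with E2F4, 20 with EGR1, 39 with ZBTB7A, 31 with HOXA11, 14 with RORA, 11 with TFCP2 and 33 with NKX2-8, against 15 in the control library. The NRF1 library stood far above a range of 10 to 39 counts in which the control library lay among the other TF libraries. In TMM-scaled units NCAN was at 28.5 CPM with NRF1 and 0.816 CPM in the control, 34.9-fold apart (95% counting interval 21.0 to 63.0) and a log2 fold change of 4.93. Set against the other 7 TF libraries by their mean, which does not use the control library, NCAN was 19.9-fold higher with NRF1. The next library in order was ZBTB7A at 2.69 CPM, 10.6-fold below NRF1 (interval 7.62 to 15.1). No other pair of neighbours in the order of the 9 libraries was apart beyond counting error. Further apart in that order, the counting intervals of ZBTB7A (1.92 to 3.68 CPM) and E2F4 (0.268 to 1.03 CPM) did not overlap.

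BCAN, the brevican core protein, had 130 counts with NRF1, 7 with E2F4, 11 with EGR1, 14 with ZBTB7A, 18 with HOXA11, 9 with RORA, 4 with TFCP2 and 11 with NKX2-8, against 2 in the control library. The control library was the lowest of the 9, and the NRF1 library was the only one above 18 counts. The levels were 8.20 CPM with NRF1 and 0.109 CPM in the control, 75.4-fold apart with an interval of 20.5 to 629 that reflects the 2 control counts. With the mean of the remaining 7 TF libraries as reference the ratio was 12.4, so the choice of reference moved the fold of BCAN by more than that of NCAN. HOXA11, next in order at 1.07 CPM, was 7.66-fold below NRF1 (interval 4.66 to 13.3).

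ACAN, the aggrecan core protein, had 176 counts with NRF1, 72 with E2F4, 52 with EGR1, 28 with ZBTB7A, 27 with HOXA11, 24 with RORA, 17 with TFCP2 and 42 with NKX2-8, against 30 in the control library. Below NRF1, E2F4 and EGR1 were on the high side and TFCP2 on the low side, and the counting intervals of E2F4 (3.15 to 5.08 CPM) and TFCP2 (0.567 to 1.56 CPM) did not overlap. ACAN was at 11.1 CPM with NRF1 and 1.63 CPM in the control, 6.80-fold apart (interval 4.60 to 10.4) and a log2 fold change of 2.68. Against the other 7 TF libraries the ratio was 4.85, and against E2F4 alone it was 2.75 (interval 2.08 to 3.67).

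VCAN was the abundant lectican of these cells and had the narrowest range of the 6 members that reached 1 CPM. It had 1269 counts with NRF1, 1316 with E2F4, 1246 with EGR1, 1081 with ZBTB7A, 1308 with HOXA11, 1527 with RORA, 1427 with TFCP2 and 1077 with NKX2-8, against 1589 in the control library. In CPM the libraries ran from 71.5 with NKX2-8 to 92.2 with RORA, and the highest was 1.29-fold above the lowest. The NRF1 level of 80.0 CPM, against 86.4 CPM in the control library, gave a ratio of 0.926 (interval 0.860 to 0.998). Against the other 7 TF libraries the ratio was 1.02.

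Levels between genes were compared per kilobase of exon. In the NRF1 library the summed lectican level was 12.2 CPM per kb. The other TF libraries were at 5.50 to 6.59 CPM per kb and the control library at 6.11. VCAN made up 44.2% of that sum with NRF1, 86.8% to 96.0% with the other 7 TFs and 95.3% in the control library. NCAN made up 33.8% with NRF1 and 1.93% in the control library, BCAN 13.6% and 0.361%, and ACAN 8.34% and 2.45%. Per kilobase, NCAN thus came directly after VCAN with NRF1. It also did so with ZBTB7A (6.73%), NKX2-8 (5.73%), HOXA11 (4.54%) and TFCP2 (1.59%), so this order was not particular to NRF1. ACAN came directly after VCAN in the control library and with E2F4, EGR1 and RORA. In the control library that order rested on 30 counts of ACAN and 15 of NCAN.

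**Figure D1:**
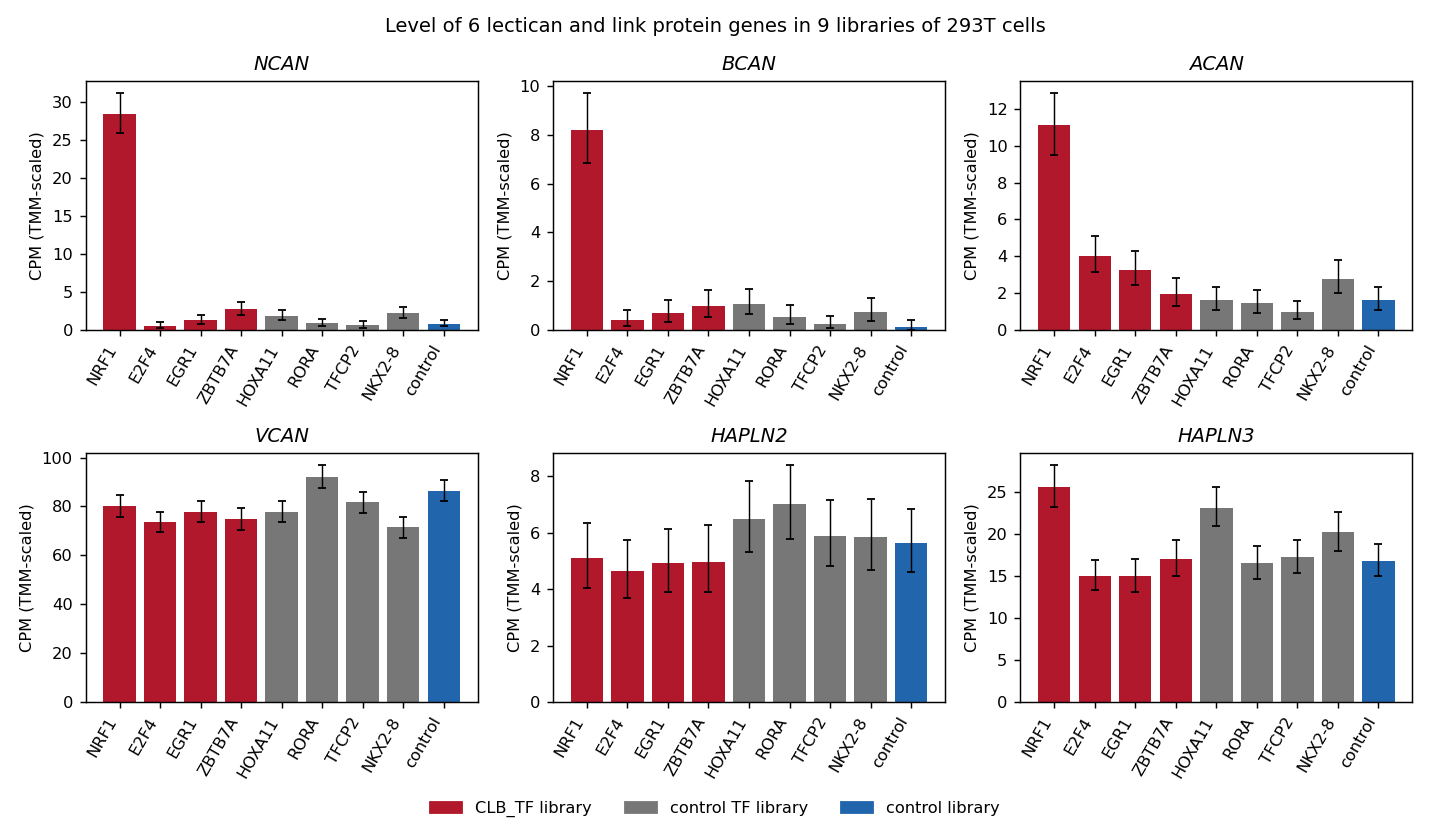
Level in TMM-scaled CPM (vertical axis, linear, from 0) of the 6 genes that reached 1 CPM, with the 8 TF libraries and then the control library along the horizontal axis of each panel. Bars are single libraries and error bars are exact Poisson 95% intervals of the count. NCAN, BCAN and ACAN had their highest bar with NRF1, at 28.5, 8.20 and 11.1 CPM, and VCAN stayed between 71.5 and 92.2 CPM.

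HAPLN2 and HAPLN3, the link proteins that reached 1 CPM, did not change 2-fold against the control in any TF library. HAPLN1 and HAPLN4 stayed below 1 CPM in every library and could not be called, so their pairs with VCAN and NCAN are not assessed. HAPLN3, next to ACAN, had 407 counts with NRF1, 269 with E2F4, 240 with EGR1, 247 with ZBTB7A, 390 with HOXA11, 274 with RORA, 302 with TFCP2 and 305 with NKX2-8, against 310 in the control library. NRF1 and HOXA11 were the high libraries, at 25.7 and 23.2 CPM, and their ratio of 1.11 (interval 0.961 to 1.27) did not separate them. Against the control library at 16.9 CPM, the NRF1 ratio was 1.52 (interval 1.31 to 1.77), and against the mean of the remaining 7 TF libraries it was 1.44.

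HAPLN2, next to BCAN, had 81 counts with NRF1, 83 with E2F4, 79 with EGR1, 72 with ZBTB7A, 109 with HOXA11, 116 with RORA, 103 with TFCP2 and 88 with NKX2-8, against 104 in the control library. In CPM the 4 CLB_TF libraries, at 4.65 to 5.11, were all below the control library at 5.65 and the control TF libraries at 5.84 to 7.01. Of the 8 pairs of neighbours in the order of the libraries, 0 were apart beyond counting error. The counting intervals of the highest library, RORA (5.79 to 8.40 CPM), and the lowest, E2F4 (3.70 to 5.76 CPM), did not overlap. The interval of each TF library's ratio to the control library included equal levels. The share of all genes with this split of 4 CLB_TF libraries is not given here. The NRF1 level was 0.903 times that of the control library (interval 0.667 to 1.22) and 0.899 times the mean of the remaining 7 TF libraries.

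HAPLN1, next to VCAN, had 2 counts with NRF1, 0 in the other 7 TF libraries and 1 in the control library, too few for a fold. HAPLN4, next to NCAN, had 0 counts in all 9 libraries. By counting error alone a count of 0 allows up to 3 counts, or 0.163 to 0.207 CPM per library (a 1-sided limit, lower than the upper end of the exact Poisson interval at 0.201 to 0.255 CPM). HAPLN4 shares 3449 of its 3569 exon bases with a lncRNA on the same strand (ENSG00000267629), which had 1 count with NRF1 and 0 elsewhere, and reads over both may be assigned to neither, so the 0 need not reflect depth or expression. Per kilobase, the summed link protein level was 9.58 CPM with NRF1, 6.35 CPM with E2F4 to 9.47 CPM with HOXA11 in the other TF libraries, and 7.31 CPM in the control library. HAPLN3 made up 76.0% of it with NRF1 and 65.4% in the control library.

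The genes around the lecticans were read beside them. Within 100 kb of a member there were 18 other protein-coding genes at 1 CPM or more, 7 around NCAN, 10 around BCAN, 1 around ACAN and 0 around VCAN. In the NRF1 library 0 of the 18 rose and 0 fell, beside 8.24% and 0.235% of all genes tested. With 18 genes and shares this small, 0 calls are not read as a result about the region. The log2 fold changes of the 18 ran from -0.39 to 0.23, with a median of -0.09. At the ends of this range were MRPL24, a mitochondrial ribosomal protein gene near BCAN, at -0.39, and SUGP1, a splicing factor gene near NCAN, at 0.23. NES, which encodes the intermediate filament nestin and lies near BCAN, was at -0.27, and MFGE8, a secreted glycoprotein gene near ACAN, was at -0.26. In the other 7 TF libraries too, 0 of the 18 rose or fell by the rule. Of all genes tested there, 0.491% to 3.68% rose and 0.185% to 0.879% fell.

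Antisense and overlapping features were counted separately. BCAN shares 328 exon bases with the antisense lncRNA ENSG00000272405, which had 23 counts with NRF1 and 15 in the control library, and 354 with BCAN-AS2, which had 6 counts with NRF1 and 7 in the control library. Without a known strand setting, reads over the shared bases could not be told apart between BCAN and these features. BCAN has 4931 exon bases in all, and this limit does not reach the bases that are not shared. Both features stayed at 23 counts or fewer in every library.

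**Figure D2:**
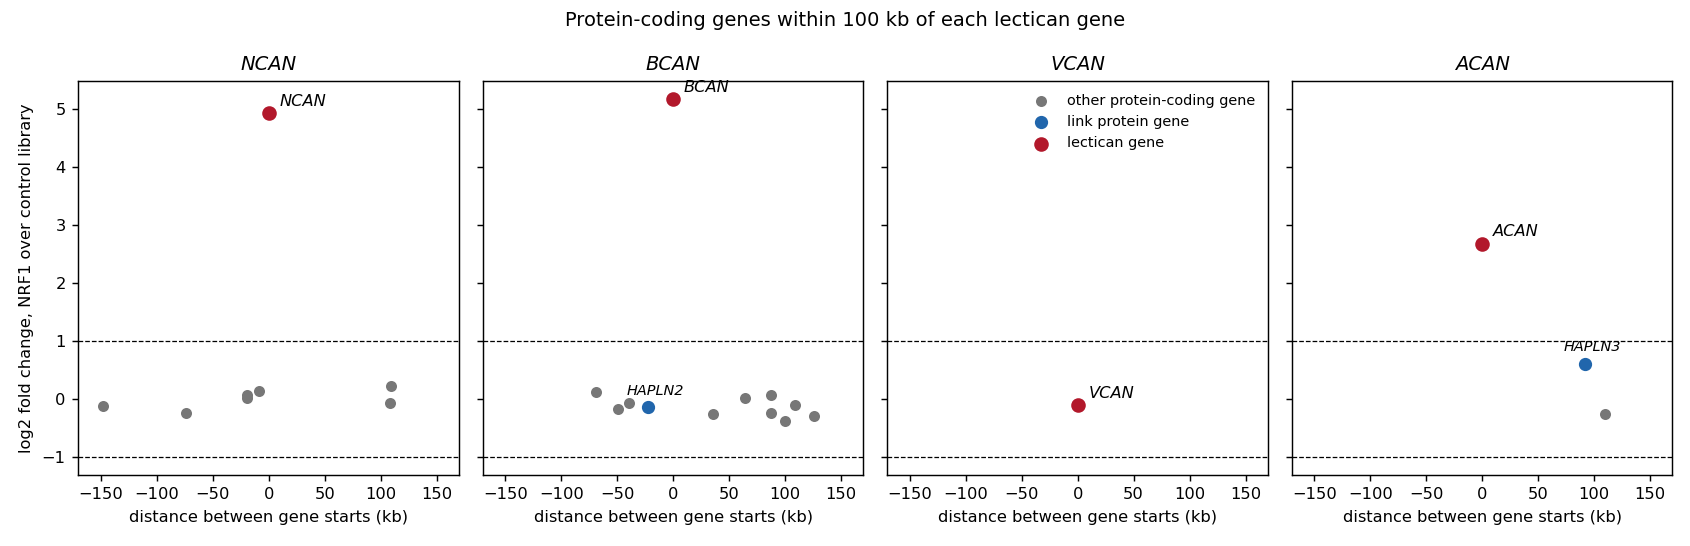
Log2 fold change in the NRF1 library over the control library (vertical axis) of each lectican gene and of the protein-coding genes within 100 kb, by the distance between gene starts in kilobases along the direction of the lectican gene (horizontal axis). Red points are the lecticans, blue points the link proteins and grey points the other genes, and dashed lines mark a 2-fold change. NCAN, BCAN and ACAN lay at 4.93, 5.18 and 2.68, while the other 18 genes lay between -0.39 and 0.23.

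Among the 13039 protein-coding genes tested in the NRF1 library, ordered by log2 fold change, BCAN was at rank 9, NCAN at rank 10 and ACAN at rank 180. HAPLN3 was at rank 1390, VCAN at rank 7912 and HAPLN2 at rank 8585. The family was thus spread from near the top of the order to beyond its middle.

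**Figure D3:**
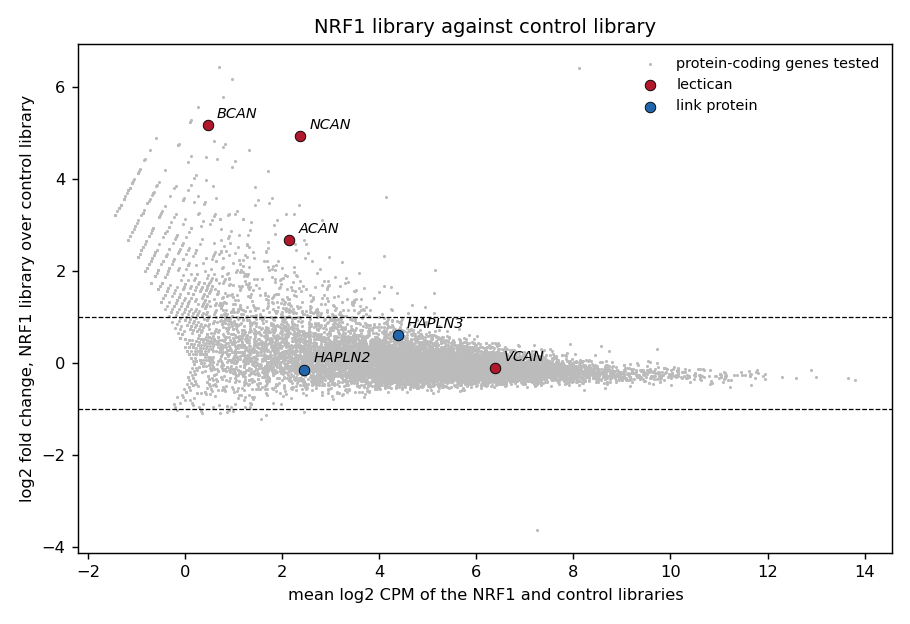
Log2 fold change in the NRF1 library over the control library (vertical axis) against the mean log2 CPM of both libraries (horizontal axis) for the 13039 protein-coding genes tested, with lecticans in red and link proteins in blue. Each point is 1 gene in 1 pair of libraries and dashed lines mark a 2-fold change. BCAN and NCAN lay at 5.18 and 4.93, ACAN at 2.68, and the other 3 members between -0.14 and 0.60.

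In the other 7 TF libraries each member was called at most 3 times, and only 3 lecticans were called at all. With E2F4, 4 members were tested and 1 rose, beside 3.68% of all genes that rose and 0.261% that fell. That gene was ACAN, at a ratio of 2.47 (interval 1.59 to 3.92) and a log2 fold change of 1.24, and it was at 0.99 with the 6 remaining TF libraries except NRF1 as reference, under the threshold. With EGR1, 5 members were tested and 0 rose or fell, beside 2.5% of genes that rose and 0.28% that fell. ACAN was just outside the threshold there, at a ratio of 1.99 (interval 1.25 to 3.23) and a log2 fold change of 0.94.

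With ZBTB7A, 5 members were tested and 1 rose, beside 1.92% of genes that rose and 0.439% that fell. This was NCAN at a ratio of 3.30 (interval 1.78 to 6.45), which stayed past the threshold with that second reference, at a log2 fold change of 1.10. With HOXA11, 6 were tested and 2 rose, beside 1.17% of genes that rose and 0.34% that fell. NCAN had a ratio of 2.26 (interval 1.18 to 4.51) and BCAN a ratio of 9.84 (interval 2.36 to 87.5), which for BCAN rested on 18 counts against 2 in the control library. With the other 6 TF libraries except NRF1 as reference, the log2 fold changes with HOXA11 were 0.46 for NCAN and 0.78 for BCAN, both under the threshold.

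With NKX2-8, 5 members were tested and 1 rose, beside 2.83% of genes that rose and 0.879% that fell. This was again NCAN, at a ratio of 2.69 (interval 1.42 to 5.32), and at a log2 fold change of 0.74 against the other 6 TF libraries without NRF1. With RORA, 4 were tested and 0 were called, beside 0.522% of genes that rose and 0.393% that fell, and with TFCP2, 4 were tested and 0 were called, beside 0.491% that rose and 0.185% that fell. The medians over the members tested ran from -0.20 with E2F4 to 0.33 with HOXA11, and those over all genes from -0.04 to -0.00. All 8 comparisons share the control library, so a low control count, as in BCAN, enters each of them.

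A comparison that does not use the NRF1 or the control library set the E2F4, EGR1 and ZBTB7A libraries against the HOXA11, RORA, TFCP2 and NKX2-8 libraries with edgeR's quasi-likelihood test, in which different TFs stand in for replicates. Of 15131 genes tested, 1 passed an adjusted p of 0.05 (0.00661%), and 1345 had an unadjusted p below 0.05. Of the 6 members tested, 0 passed and 2 had an unadjusted p below 0.05. With DESeq2 and in each of the other alternatives of this test, 0 members passed as well.

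ACAN averaged 3.07 ± 1.06 CPM in the 3 CLB_TF libraries and 1.70 ± 0.771 CPM in the 4 control TF libraries (SD), a log2 fold change of 0.88 ± 0.35 (SE) with an edgeR adjusted p of 0.5226. HAPLN2 averaged 4.85 ± 0.179 CPM and 6.31 ± 0.550 CPM in the same order, a log2 fold change of -0.37 ± 0.14 (SE) with an edgeR adjusted p of 0.4993. HAPLN2 was the only 1 of the 6 members whose CPM ranges did not overlap between these groups, and 9.64% of all genes tested had ranges that did not overlap. The log2 fold change was 0.12 ± 0.54 (SE) for NCAN, 0.08 ± 0.50 for BCAN, -0.09 ± 0.08 for VCAN and -0.29 ± 0.13 for HAPLN3. The edgeR adjusted p of the other 4 members was between 0.558 and 0.9792. A difference between these TF classes was therefore not shown for any member, which does not show that they were alike.

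Other genes of hyaluronan and lectican biology were read from a list of 74 genes in 8 roles. In the NRF1 library 59 were tested, 10 rose and 0 fell, with a median log2 fold change of 0.19, beside 8.24% of all genes that rose. With E2F4 6 of 57 rose (3.68% of all genes), with EGR1 7 of 58 (2.5%) and 1 fell, with ZBTB7A 4 of 56 (1.92%), and with NKX2-8 5 of 57 (2.83%). With HOXA11 2 of 55 rose (1.17%), with RORA 2 of 55 (0.522%) and with TFCP2 1 of 55 (0.491%). Nothing particular to the list is read from these counts, since it was compiled with results of these data known.

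Of the enzymes that make hyaluronan, HAS3, a hyaluronan synthase, had 66 counts with NRF1, 256 with E2F4, 52 with EGR1 and 40 with ZBTB7A, against 17 in the control library. It was called in these 4 CLB_TF libraries and in none of the 4 control TF libraries, where it had 19 to 28 counts. Of all genes tested, 1.92% to 8.24% rose in the CLB_TF libraries and 0.491% to 2.83% in the control TF libraries. The share of all genes with the pattern of HAS3 is not given here, so nothing about the TF classes is read from it. Its largest ratio was 15.5 (interval 9.49 to 27.0), with E2F4. Of the genes for hyaluronan breakdown, CEMIP, needed for hyaluronan degradation in skin fibroblasts, had 69 counts with NRF1, 19 with E2F4 and 41 with EGR1, against 5 in the control library. HYAL1, a lysosomal hyaluronidase, was called with NKX2-8 only, at 19 counts against 4 in the control library.

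Of 9 proteases that cleave lecticans, 7 were tested in the NRF1 library and 4 rose, beside 8.24% of all genes tested. As for the whole list, nothing particular to the proteases is read from this count. ADAMTS8 had 218 counts with NRF1, 234 with E2F4, 92 with EGR1 and 103 with ZBTB7A, against 38 in the control library, and ranged from 30 to 46 in the control TF libraries. The share of all genes with this pattern is not given here, so nothing about the TF classes is read from it. ADAMTS5, a principal aggrecanase of cartilage, had 58 counts with NRF1 and 21 in the control, 3.20-fold apart (interval 1.92 to 5.56). ADAMTS20 had 97 counts with NRF1 and 44 in the control library. Of 22 enzymes that build the chondroitin sulfate chains, 21 were tested with NRF1 and 0 were called, with a median log2 fold change of -0.06. Of these 22 genes, DSEL, a dermatan sulfate epimerase, rose with E2F4 on 18 counts against 3 in the control library, and CHST13, a chondroitin sulfotransferase, fell with EGR1 and rose with NKX2-8.

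Of other chondroitin sulfate proteoglycans, CSPG4, the transmembrane proteoglycan NG2, had 622 counts with NRF1 and 300 in the control, 2.40-fold apart (interval 2.09 to 2.77). BGN, which encodes biglycan, had 40 counts with EGR1 and 1 in the control, 45.9-fold apart with an interval of 7.79 to 1859. SPOCK2, or testican-2, was called with E2F4, EGR1, HOXA11, RORA and NKX2-8, on 22 to 30 counts against 10 in the control library. Of the net partners, TNXB, the tenascin-X gene, was called in 7 of the 8 TF libraries, on 34 to 79 counts against 13 in the control library, and its reads may be shared with a near-identical partial copy. CRTAC1, cartilage acidic protein, was called with EGR1 only, at 289 counts against 77 in the control library. STAB1, a scavenger receptor with a link domain, was called with NRF1, ZBTB7A and NKX2-8 on 15 to 17 counts against 8, and RTN4R, a neuronal receptor for chondroitin sulfate chains, with E2F4 at 989 counts against 279 in the control library.

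**Figure D4:**
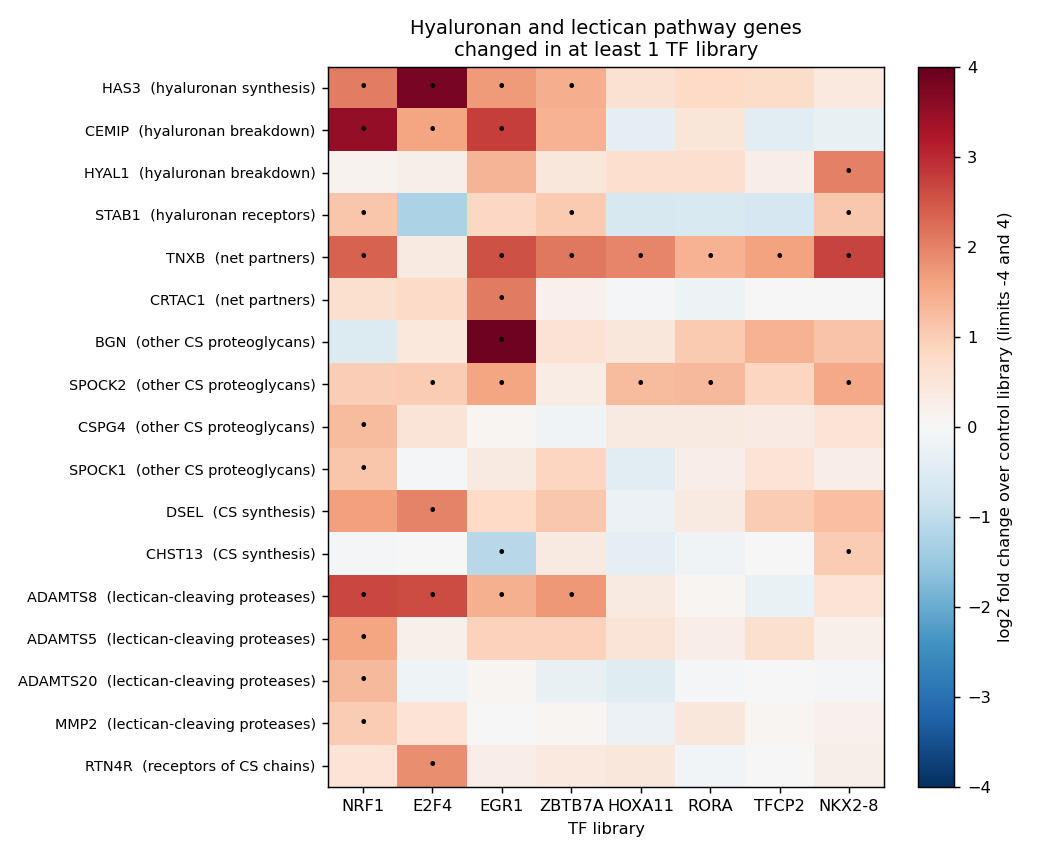
Log2 fold change over the control library (colour, red for higher and blue for lower) of the 17 pathway genes called in at least 1 TF library (vertical axis, with their role), in the 8 TF libraries (horizontal axis). Dots mark calls of at least 2-fold at 1 CPM or more. HAS3 and ADAMTS8 carry dots in the 4 CLB_TF libraries and in no control TF library, and TNXB carries them in 7 libraries. The share of all genes with the pattern of HAS3 and ADAMTS8 is not given. CS stands for chondroitin sulfate.

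Markers of cell types in which lecticans are known were read beside these values. Of 4 astrocyte markers, 3 were at 1 CPM or more with NRF1 and 1 in the control library, and their summed level was 11.3 CPM with NRF1, 3.20 to 5.51 CPM in the other TF libraries and 3.04 CPM in the control library. SLC1A2, an astrocyte glutamate transporter, had 83 counts with NRF1 and 4 in the control library, AQP4, an astrocyte water channel, 63 and 25, GFAP, the astrocyte intermediate filament, 15 and 9, and ALDH1L1, a folate enzyme of astrocytes, 18 and 18. The NKX2-8 library also had 3 of the 4 at 1 CPM or more. Of 8 neuronal markers 5 to 6 were at 1 CPM or more, with summed levels of 36.6 to 49.7 CPM over the 9 libraries, and of 6 chondrocyte markers 4 to 5 were, with 78.2 to 97.7 CPM. Oligodendrocyte markers (2 to 3 of 6) summed to 12.6 to 17.9 CPM, fibroblast markers (2 of 6) to 27.2 to 43.5 CPM and leukocyte markers (1 of 4) to 2.12 to 4.91 CPM. The fibroblast collagen gene COL1A2 had 0 counts in 8 of the 9 libraries. In the NRF1 library SNAP25, a synaptic protein gene, with 25 counts against 3 in the control library, and PVALB, which encodes parvalbumin, with 39 against 18, rose among 7 neuronal markers tested. Of 5 chondrocyte markers tested there, MATN1, the matrilin-1 gene, with 25 against 10, and COMP, a cartilage matrix gene, with 140 against 51, rose. The summed level of the chondrocyte markers was nevertheless lower with NRF1, at 89.8 CPM against 97.3 CPM in the control library. Among 6 kidney markers tested there, EPCAM rose too, at a log2 fold change of 1.09. Of all genes tested in the NRF1 library, 8.24% rose. SNAP25 was also called with EGR1 and NKX2-8, PVALB and SLC1A2 with E2F4, MATN1 with EGR1, and COMP with NKX2-8, while AQP4 was called with NRF1 alone. Other neuronal markers were called with E2F4, ZBTB7A and HOXA11, and ALDH1L1 with NKX2-8. The part of these genes, and of the wider gene detection in the NRF1 and EGR1 libraries, in the lectican values was not tested.

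The genes whose pattern over the 9 libraries was most like each member were taken by Pearson r of log2 CPM, among 2124 protein-coding genes at 1 CPM or more in some library and varying at least 2-fold. For NCAN they were OTP, a homeobox gene (r = 0.985), SERHL2, which has a near-identical neighbour copy (0.981), and KIF19, a kinesin gene (0.976). For BCAN they were FAM186B (0.984), KLHDC8A (0.970) and CXCL16, a chemokine gene (0.966). For ACAN they were SV2C, a synaptic vesicle protein gene (0.991), B3GAT1, a glucuronyltransferase gene (0.971), and LRRTM1, a synaptic adhesion gene (0.957). Each of these 9 genes had its highest count in the NRF1 library. These counts ran from 16 for LRRTM1 (2 in the control library) to 188 for CXCL16 (113 in the control library). The genes were picked for following members that were highest with NRF1, so this is not a separate result.

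VCAN, HAPLN2 and HAPLN3 had lower top values of r than NCAN, BCAN and ACAN. Candidates had to vary at least 2-fold, whereas VCAN varied 1.29-fold, HAPLN2 1.51-fold and HAPLN3 1.71-fold from lowest to highest library. Genes as steady as these members could not be matched, so the lower r is not read as a result. The highest r was 0.834 for VCAN, with ZBTB20, a zinc finger gene, 0.820 for HAPLN2, with CD72, a B cell receptor regulator, and 0.938 for HAPLN3, with RFPL2. All points share the 9 libraries, in which the NRF1 library was the highest for NCAN, BCAN and ACAN.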

How the data were processed

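RNA-seq was measured in 9 libraries of 293T cells, 1 per condition. Per the labels and the study's methods, the authors checked reads with FastQC (version 0.11.2), mapped them to GRCh37 with STAR (version 2.6.0c) and deposited raw counts per gene from featureCounts (version 1.6.3). Their strand setting was not given in the sources used here.

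Members and lists were chosen with earlier results of these data known. Gene IDs were matched to GENCODE symbols (35408 of 36202 Ensembl IDs). Counts were scaled with TMM in edgeR (version 4.0.16, R version 4.3.3). Log2 fold changes used a prior count of 2, and a call needed a 2-fold change with 1 CPM in either library. Intervals (95%) are exact, Poisson for single counts and conditional binomial for ratios (scipy version 1.17.1). The CLB_TF libraries other than NRF1 were tested against the control TF libraries with edgeR's quasi-likelihood test and Benjamini-Hochberg adjustment. DESeq2 (version 1.42.0) was an alternative. P-values then measure the spread between different TFs. The edgeR steps were tried on simulated counts with a fixed spread for all genes, not the spread between TFs. That trial therefore does not give the power of the test in these libraries. Named pathway genes are up to 3 per role with the largest change among calls; named similar genes are the 3 with the highest r. Alternatives were other scalings, minimum levels, prior counts and references, and leaving out each library. Promoter letters are from RefSeq (GRCh38.p14).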

Additional observations from a re-analysis of the deposited data

Results flagged for a closer look

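Within the 4 CLB_TF libraries, 2 members had 1 library far from the other 3. For NCAN the gap between the NRF1 library and the next one was 0.9236 of the whole range in CPM, and for BCAN it was 0.9263. The families were chosen with the NRF1 values known, so both are given as descriptions and no outlier test is read from them.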

How the results depend on the processing

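The number of members that rose in the NRF1 library was 3 under every alternative run. In the other libraries the counts were small and moved. With a minimum of 0.5 CPM, 1 member rose with EGR1, 2 with ZBTB7A, 1 with RORA and 2 with NKX2-8. With no minimum, 2 rose with E2F4, 1 with EGR1, 2 with ZBTB7A, 1 with RORA and 2 with NKX2-8. With a minimum of 5 CPM, 0 rose with E2F4, ZBTB7A, HOXA11 or NKX2-8, since fewer genes were tested. With a prior count of 5, 1 rose with HOXA11. With the mean of the remaining 7 TF libraries as reference, 0 rose with E2F4, ZBTB7A, HOXA11 and NKX2-8, 2 fell with each of E2F4, EGR1, HOXA11 and NKX2-8, and 3 fell with each of RORA and TFCP2. This mean holds the high NRF1 library, and under it the log2 fold change reversed for NCAN with ZBTB7A (-0.85), HOXA11 (-1.41) and NKX2-8 (-1.15) and for BCAN with HOXA11 (-0.57), among members called against the control library. Log2 fold changes that were not calls changed sign there too, among them NCAN with EGR1 (-1.95) and BCAN with the other 6 TFs (-2.44 to -0.70). Against the other 6 TF libraries without NRF1, a reference chosen after seeing the data, 0 rose with E2F4, HOXA11 and NKX2-8, 1 fell with E2F4 and 2 fell with TFCP2. In the edgeR test across TF classes, genes higher in the CLB_TF libraries numbered 1 in the main design, 550 with no filter on low counts (59 lower), 6 with the NRF1 library added, and 68 with DESeq2 (8 lower). Leaving out 1 library each gave 0 to 30, with 30 without EGR1, 12 without E2F4, 7 without ZBTB7A and 0 without each control TF library. The causes were not tested. No member passed in any of these. No paired analysis was possible because each condition had 1 library. Depth limits the fold of BCAN, with 2 control counts, and allows none for HAPLN1, with 3 counts in all. HAPLN4 had 0 counts, and its exon overlap with a lncRNA limits it as well.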
